A study of Sus scrofa with 16 samples.

Results

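The enzymes described here carry out the oxidation of long fatty acids in mitochondria, measured in psoas major (a loin muscle beside the spine) and in diaphragm (the main breathing muscle) of Iberian pigs. They are CPT1B, CPT2, ACADVL, ACADL, ACADM, HADHA, HADHB, HADH and DECR1, 9 genes taken by symbol from the array's annotation. They are 9 of the 6765 genes named on the porcine Affymetrix array, where 12 of 24123 probe sets carry 1 of these symbols alone, with 3 for HADHB, 2 for ACADVL and 1 for each other gene. The 8 animals were 211 days old and had received the same pelleted diet before the restriction began. In each muscle there were 4 arrays of restricted animals (20% less feed, animals 2, 3, 5 and 8) and 4 of animals on the high feeding level (animals 1, 4, 6 and 7). Animals 5 to 8 were female and animals 1 to 4 male, with 2 animals per sex and feeding level. No castration status and no length of restriction are given in the sources used here. Each animal gave 1 array per muscle, and whole muscle was measured, so that fewer fibres of a type and less RNA per fibre cannot be told apart.

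Beta-oxidation shortens a fatty acid by cycles of 4 reactions inside the mitochondrion. A long-chain fatty acid enters as an acylcarnitine, made by CPT1B at the outer membrane and turned back to acyl-CoA by CPT2. Acyl-CoA dehydrogenases of different chain-length preference (ACADVL, ACADL and ACADM) take the first step. The trifunctional protein of HADHA and HADHB carries out the following steps on long chains, and HADH does the dehydrogenation of shorter 3-hydroxyacyl-CoA. DECR1 handles intermediates that arise from unsaturated fatty acids. Slow, oxidative fibres are known to rely on this pathway more than fast, glycolytic fibres do.

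ACADL, HADH and DECR1 were lower in psoas than in diaphragm, and the other enzymes did not pass the test between the muscles. The difference was 1.90-fold for ACADL, 1.40-fold for HADH and 1.42-fold for DECR1. No enzyme was called between restricted and high feeding or between females and males. The enzymes varied together from array to array, and the psoas arrays of animals 3, 4 and 7 were low for most of them. Calls are limma p-values under 0.05 after Benjamini-Hochberg adjustment over all 11467 tested probe sets, limma being a linear model that shares variance estimates among probe sets.

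Of the 12 probe sets, 11 passed the filter of a log2 value at or above 4 on at least 4 arrays. The exception was CPT2, which lay between 2.53 and 2.87 on the 16 arrays, below that floor on each. The 11 others lay above 4 on every array, so that none was admitted by 1 muscle alone. Values are the deposited log2 expression values, and differences are on the same log2 scale. Levels of different probe sets are not set against each other.

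Skeletal muscle markers were high in both muscles. CKM, muscle creatine kinase, averaged 15.15 in psoas and 15.16 in diaphragm, and the mean of 6 such markers lay at 13.59 to 13.83 in psoas and 13.63 to 13.91 in diaphragm, with MYOT alone called (-0.19). Of 15 hepatocyte markers on the array 7 passed the filter, with a mean of 3.13 to 3.78 on psoas arrays and 3.64 to 7.93 on diaphragm arrays. Albumin (ALB), FGB, HP, APOC3 and TF lay below 4 on every psoas array. The mean of 7 endothelial markers was 6.66 to 7.20 in psoas and 7.33 to 7.84 in diaphragm. The mean of 3 adipocyte markers was 6.76 to 7.21 in psoas and 7.08 to 9.29 in diaphragm, with ADIPOQ below 4 on every psoas array. The actin 3' minus 5' difference, a sign of RNA quality, was 2.18 to 2.87 in psoas and 2.35 to 3.13 in diaphragm.

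**Figure D1:**
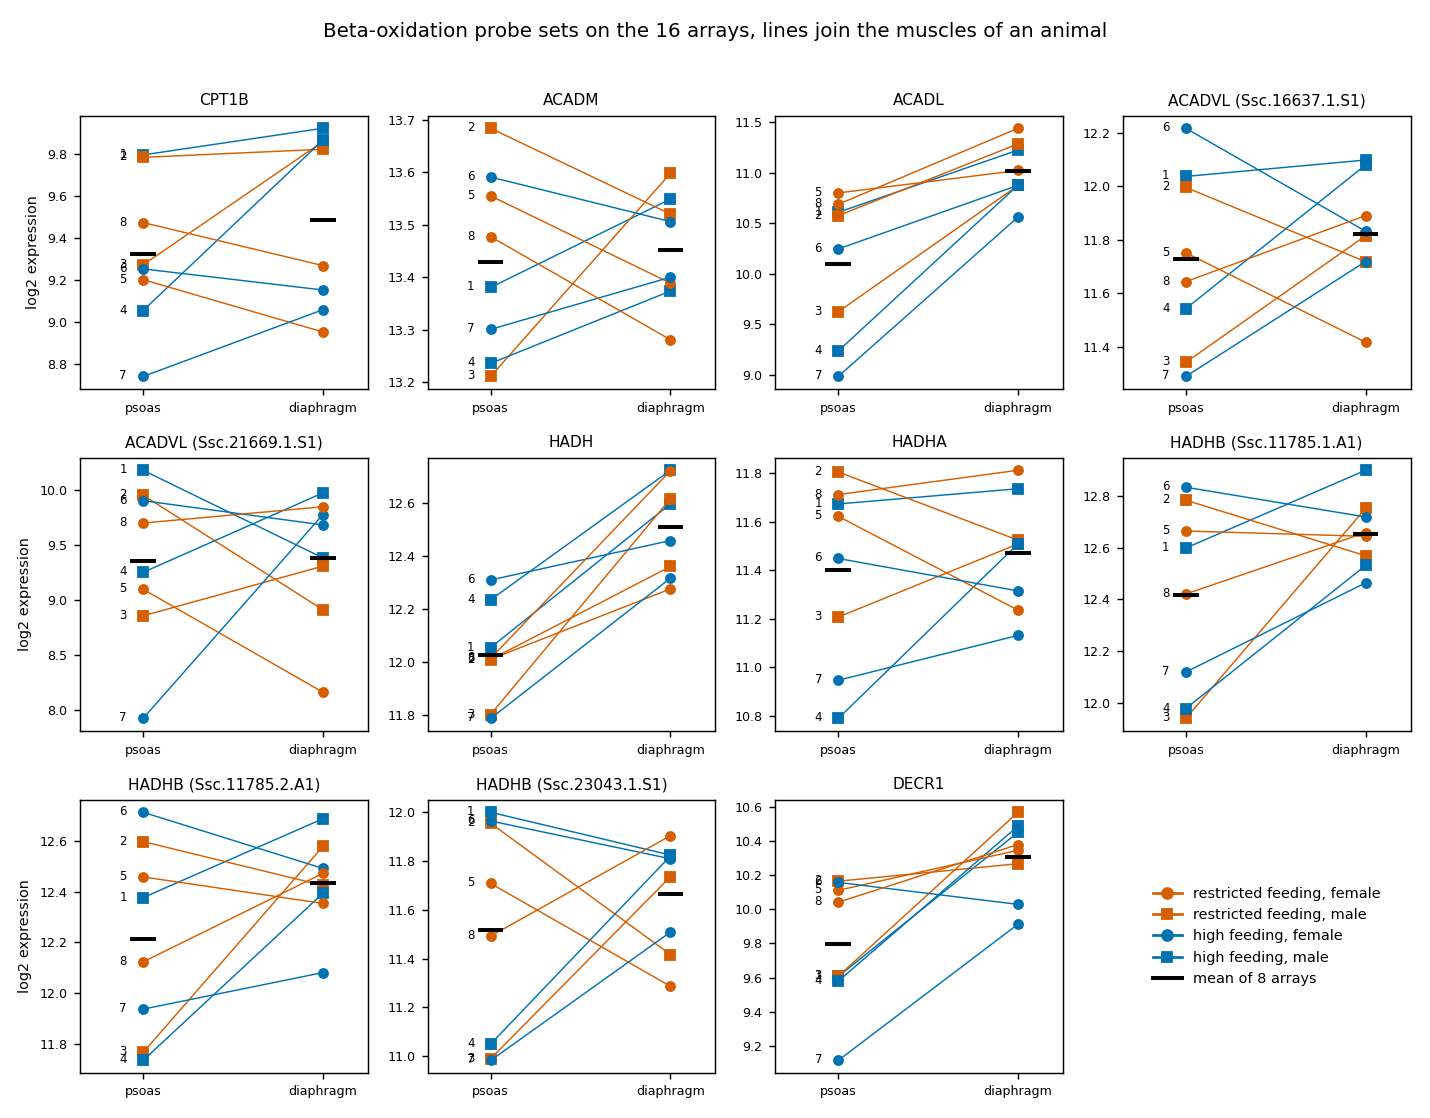
The log2 expression of the 11 tested probe sets (vertical axes) on psoas arrays (left of each panel) and diaphragm arrays (right), with lines joining the arrays of an animal, numbers naming animals and black bars giving means of 8 arrays. ACADL and HADH lines rise to the diaphragm in 8 of 8 animals and those of DECR1 in 7 of 8, while psoas values of animals 3, 4 and 7 lie low in most panels.

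ACADL, the long-chain acyl-CoA dehydrogenase, measured 10.61, 10.57, 9.62, 9.24, 10.80, 10.24, 8.99 and 10.69 in the psoas of animals 1 to 8. In diaphragm it measured 11.22, 11.28, 10.87, 10.88, 11.02, 10.87, 10.56 and 11.44 in the same order. Psoas was lower in 8 of 8 animals, although the highest psoas arrays lay above the lowest diaphragm array, that of animal 7. The difference was -0.92 ± 0.24 (log2, SE, adjusted p = 0.0104, limma on the 16 arrays of 8 animals, with no animal term). It was largest in animals 3, 4 and 7, at -1.25, -1.64 and -1.57, and lay between -0.75 and -0.22 in the other 5.

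HADH, the dehydrogenase of shorter 3-hydroxyacyl-CoA, measured 12.05, 12.01, 11.80, 12.23, 12.01, 12.31, 11.79 and 12.01 in the psoas of animals 1 to 8. The diaphragm values were 12.60, 12.36, 12.62, 12.72, 12.28, 12.46, 12.32 and 12.72. Only the psoas array of animal 6 reached the diaphragm range. The difference was -0.48 ± 0.096 (log2, SE, adjusted p = 0.0023, limma), with psoas lower in 8 of 8 animals. The SD over 8 arrays was 0.183 in psoas and 0.180 in diaphragm.

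DECR1, the dienoyl-CoA reductase, measured 9.61, 10.16, 9.61, 9.58, 10.11, 10.16, 9.11 and 10.04 in the psoas of animals 1 to 8. In diaphragm the values were 10.45, 10.27, 10.57, 10.49, 10.35, 10.03, 9.91 and 10.38. Psoas was lower in every animal except animal 6, by 0.10 to 0.96 on the log2 scale. The difference was -0.51 ± 0.14 (log2, SE, adjusted p = 0.0157, limma). Without animal 3 DECR1 was at -0.44 and no longer passed (adjusted p = 0.055).

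Between the muscles 3 of 11 tested probe sets were called lower in psoas and none higher, where 27% of all tested probe sets were called, 12.4% lower and 14.6% higher. All 11 differences were below 0, with a median of -0.17, while 47.4% of all tested probe sets were below 0 and their median was 0.017. The 11 include several probe sets of HADHB and ACADVL and varied together, so that their signs are not independent. Psoas was lower in all 8 animals for ACADL and HADH, as for 9.71% of all tested probe sets. In a fit added after the data were seen, without animals 3, 4 and 7, whose psoas arrays stood apart, ACADL (-0.58, adjusted p = 0.018) and HADH (-0.40, adjusted p = 0.043) were called and DECR1 was not (-0.28, adjusted p = 0.19). The median difference was then 0.078, and CPT1B, ACADM, HADHA, both ACADVL sets and 1 HADHB set lay above 0. The arrays of the muscles overlapped for each of the 11 over all animals, while 3.72% of all had no overlap.

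The remaining enzymes did not pass. CPT1B, which makes acylcarnitine in muscle, was at 9.32 ± 0.36 in psoas and 9.49 ± 0.42 in diaphragm (log2, SD, n = 8 arrays each, difference -0.17, 95% interval -0.45 to 0.12). ACADM, the medium-chain dehydrogenase, was at 13.43 ± 0.17 in psoas and 13.45 ± 0.11 in diaphragm, with an interval of -0.20 to 0.15. ACADVL, the very long-chain dehydrogenase, differed by -0.094 in its probe set of higher mean (interval -0.38 to 0.20) and by -0.023 in that of lower mean (interval -0.69 to 0.65). HADHA, the alpha subunit of the trifunctional protein, differed by -0.071 (interval -0.38 to 0.24). For its beta subunit HADHB the 3 probe sets gave -0.24, -0.22 and -0.15. Intervals for HADHB reached from -0.54 to 0.23 over the 3 sets, so that differences of the size seen for HADH are inside them.

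**Figure D2:**
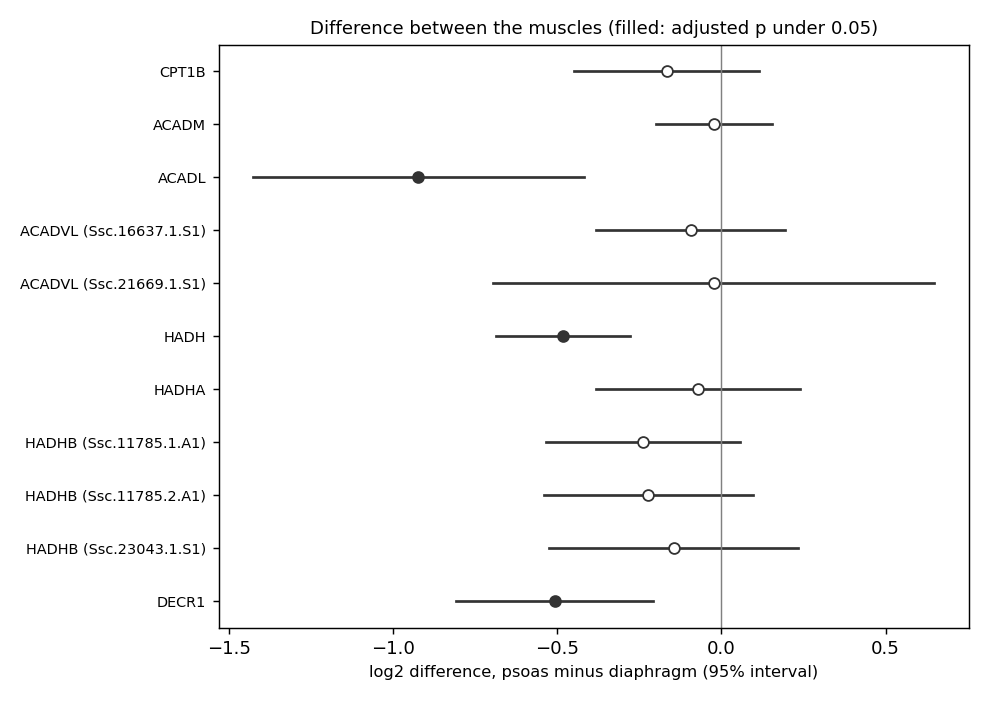
Log2 difference between the muscles, psoas minus diaphragm (horizontal axis), for each tested probe set, with 95% intervals from limma on 16 arrays and filled points for an adjusted p under 0.05. ACADL (-0.92), DECR1 (-0.51) and HADH (-0.48) are filled, and the other 8 intervals include 0.

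ACADL and HADH were called whichever animal was left out. With animals 4, 6, 7 and 8 alone, whose diaphragm arrays had an actin 3' minus 5' difference of 2.35 to 2.54 against 2.95 to 3.13 in animals 1, 2, 3 and 5, ACADL was at -1.15, HADH at -0.47 and DECR1 at -0.48, and none passed (adjusted p = 0.079, 0.125 and 0.279). With this actin difference as a covariate over all 16 arrays all 3 passed. The diaphragm of animal 3 had the lowest hepatocyte mean (3.64), and its muscle differences were -1.25 for ACADL, -0.82 for HADH and -0.96 for DECR1. The psoas array of animal 3 was also among those low for most of the enzymes. The part of the hepatocyte, endothelial and adipocyte markers in the muscle differences was not tested.

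ACADL, HADH and DECR1 were lower in psoas within each feeding level, while the other enzymes did not all keep their sign. Under restriction 8 of 11 differences lay below 0, with ACADM at 0.035, HADHA at 0.067 and the ACADVL set of lower mean at 0.34 above it, and at high feeding 11 of 11 lay below 0. Under restriction ACADL was at -0.73 ± 0.23, HADH at -0.54 ± 0.13 and DECR1 at -0.41 ± 0.14 (log2, SE, 4 animals). HADH was called there (limma, adjusted p = 0.034) as 1 of 11, where 12.1% of all probe sets were called, and its call was lost on leaving out any 1 of the 4 animals. The muscles did not overlap there for ACADL, HADH and DECR1, as for 19.3% of all probe sets, and at high feeding for HADH, as for 11.9%. At high feeding the same genes were at -1.11 ± 0.35, -0.43 ± 0.15 and -0.61 ± 0.23, and 0 of 11 probe sets were called, where 1.67% of all were. There 3 of 11 had an unadjusted p under 0.05 (limma), as against 2366 of 11467. With the animal as a block, ACADL passed under restriction (adjusted p = 0.035) and at high feeding (adjusted p = 0.046). Whether the muscle difference depended on feeding level was tested on the animals' differences, and 0 of 11 were called, as were 0% of all tested probe sets. Restricted minus high, that dependence was 0.38 ± 0.30 for ACADL, -0.11 ± 0.17 for HADH and 0.20 ± 0.25 for DECR1. For it 0 of 11 had an unadjusted p under 0.05 (limma), as against 696 of 11467.

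Around these enzymes, genes of the same route are given by list, counted with 1 probe set per gene (median difference over all 4571 genes 0.040). These lists were chosen with earlier results of these data known. Of 14 other mitochondrial beta-oxidation genes, 3 were lower in psoas and none higher, with a list median of -0.20. They were ACOT9, an acyl-CoA thioesterase (-0.88 ± 0.15 SE, adjusted p = 9.8e-04), ECI1, the enoyl-CoA isomerase for unsaturated fatty acids (-0.64 ± 0.18), and ACADS, the short-chain dehydrogenase (-0.42 ± 0.13). Of the 3 genes for the electron transfer flavoprotein and its dehydrogenase, which take up electrons from the acyl-CoA dehydrogenases, ETFA was lower in psoas (-0.27 ± 0.08). In the carnitine shuttle 1 of 5 genes was called, CRAT, carnitine acetyltransferase, which was higher in psoas (0.27 ± 0.10, adjusted p = 0.049). CPT1A, the form of CPT1 known from liver, was at -0.26 ± 0.34 (adjusted p = 0.60).

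Among genes of fatty acid uptake and activation 3 of 10 were lower in psoas and none higher. They were the binding proteins FABP4 (-1.31 ± 0.22), which is also an adipocyte marker, and FABP5 (-0.39 ± 0.08), and ACSL5, an acyl-CoA synthetase (-0.57 ± 0.15). With the mean of each gene's probe sets in place of the brightest, 5 of the 10 were lower. LPL, lipoprotein lipase, was the gene called among 6 of lipolysis and lipid droplets (-0.90 ± 0.25), and SCP2, a sterol carrier and thiolase, the gene called among 9 of peroxisomal oxidation (-0.39 ± 0.09). Both were lower in psoas, and with the mean of probe sets 2 peroxisomal genes were. Of 21 tricarboxylic acid cycle genes 3 were lower, MDH2 (-0.42), SDHA (-0.33) and SUCLG2 (-0.38), and IDH3A was higher (0.52). With the mean of probe sets 4 of the 21 were lower and 1 higher. OXCT1, which activates ketone bodies, was the gene tested of ketone use and was not called (-0.18 ± 0.20).

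Of 15 regulators of fatty acid oxidation, 4 were higher in psoas, the kinase subunit PRKAA2 of AMPK (0.32 ± 0.10), the transcription factors KLF15 (0.48 ± 0.15) and FOXO1 (0.34 ± 0.12), and LPIN1, a phosphatidate phosphatase and coactivator (0.56 ± 0.19). SIRT3, the mitochondrial deacetylase, was lower in psoas (-0.72 ± 0.21, adjusted p = 0.021). Of 4 fuel-switch genes, PDK3, a pyruvate dehydrogenase kinase, was higher in psoas (1.06 ± 0.12) and ANGPTL4, an inhibitor of lipoprotein lipase, lower (-1.07 ± 0.31), and with the mean of probe sets 2 were higher. Of 9 slow fibre genes 6 were lower in psoas, with TPM3 (-0.64), CASQ2 (-1.48), ATP2A2 (-0.28) and TNNI1 (-0.33) of smallest p. Of 8 fast fibre genes 5 were higher, with MYH2 (2.74), ATP2A1 (0.98), TPM1 (0.34) and TNNT3 (0.33) of smallest p. With the mean of probe sets 5 slow fibre genes were lower and 4 fast fibre genes higher. Of the remaining marker lists, 4 of 5 fibroblast and 2 of 4 immune genes were lower in psoas, 0 of 2 erythrocyte genes and 1 of 2 nerve genes were called, and of 5 smooth muscle genes 1 was higher and 1 lower. Of all 4571 genes, 793 were called higher in psoas and 556 lower.

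**Figure D3:**
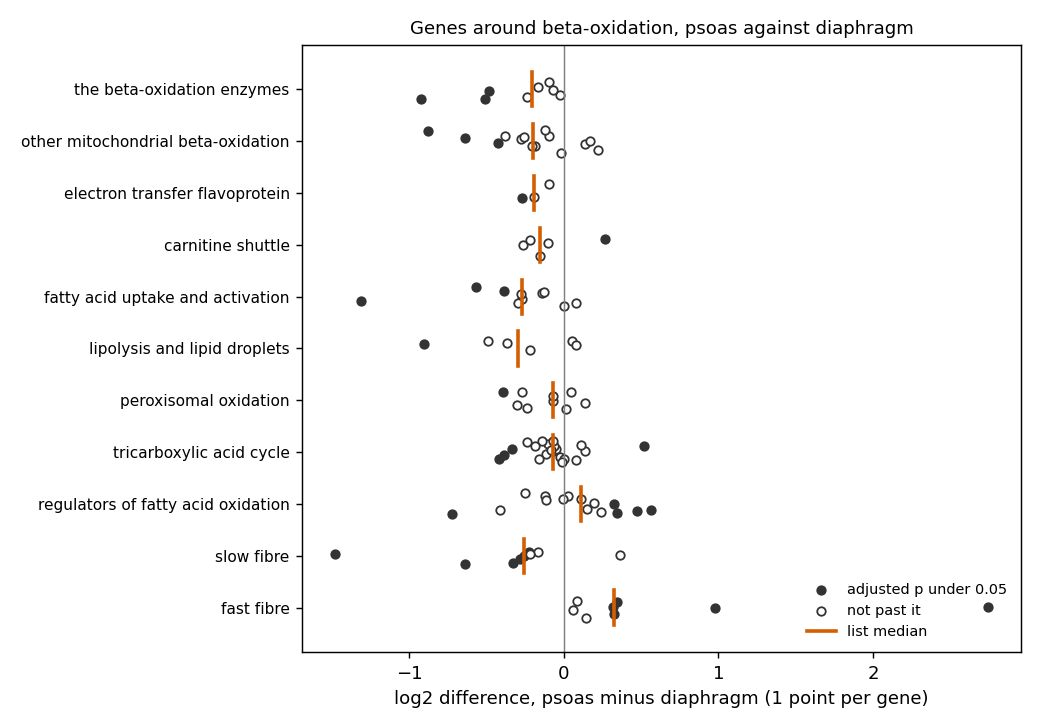
Log2 difference between the muscles, psoas minus diaphragm (horizontal axis), for each tested gene of 11 lists, with filled points for an adjusted p under 0.05 and bars for list medians. The medians of the beta-oxidation enzymes (-0.20) and of slow fibre genes (-0.26) lie left of 0, and those of regulators (0.11) and fast fibre genes (0.32) right of it.

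Feed restriction gave no called difference in the enzymes. Over both muscles 0 of 11 probe sets were called, as were 0% of all tested ones, and 0 of 11 had an unadjusted p under 0.05, as against 1451 of 11467. The random block fit on 16 arrays called none of the 11 either. ACADL averaged 10.79 ± 0.37 in restricted animals and 10.33 ± 0.51 in animals on high feeding (log2, SD, n = 4 animals each, difference 0.46, 95% interval -0.19 to 1.11). DECR1 averaged 10.19 ± 0.07 in restricted and 9.92 ± 0.27 in high-fed animals, a difference of 0.27 with an interval of -0.05 to 0.59 (limma, adjusted p = 0.46). HADHA differed by 0.24 (interval -0.15 to 0.62), and the other 8 probe sets lay between -0.28 and 0.10. The groups of restricted and high-fed animals overlapped for each of the 11, whereas 5.97% of all probe sets had groups that did not overlap.

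In psoas alone, ACADL measured 10.57, 9.62, 10.80 and 10.69 in restricted animals and 10.61, 9.24, 10.24 and 8.99 in high-fed animals. The difference of 0.65 had an interval of -0.32 to 1.62. HADHA was at 0.37 (interval -0.16 to 0.91) and DECR1 at 0.37 (interval -0.17 to 0.90). The low psoas arrays of animals 4 and 7 were high-fed and that of animal 3 was restricted, and without these 3 animals ACADL was at 0.27, HADHA at 0.18 and DECR1 at 0.19. In diaphragm the ACADVL set of lower mean was at -0.65 (interval -1.44 to 0.15) and ACADL at 0.27 (interval -0.15 to 0.69), while CPT1B (-0.024) and HADH (-0.030) lay near 0. No probe set of the enzymes was called or free of overlap in either muscle, where 0% of all were called and 4.98% in psoas and 4.88% in diaphragm did not overlap. In each muscle 0 of 11 had an unadjusted p under 0.05 (limma), as against 1291 of 11467 in psoas and 1101 in diaphragm. Of the other lists none had a called gene for feeding level. The genes of smallest p were PDK3 (-0.60), CPT1A (0.78), ECI2 (-0.41), PRKAG2 (-0.59), GPIHBP1 (0.28), ACAA1 (0.35), FABP4 (0.52), ETFA (0.17) and PDHA1 (-0.18) in their lists.

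**Figure D4:**
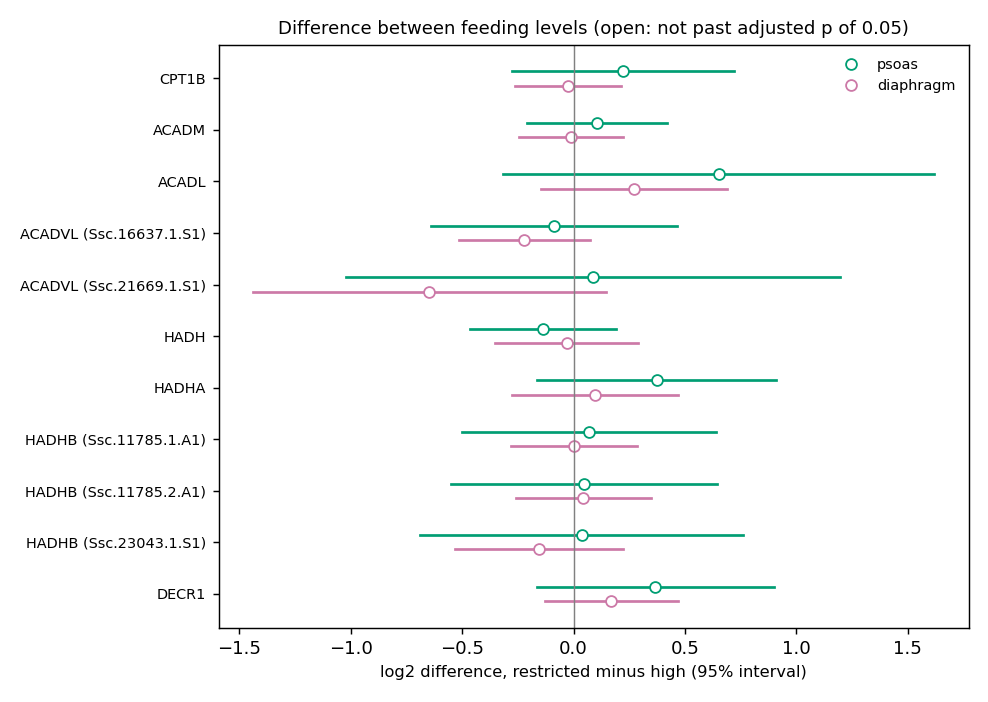
Log2 difference between feeding levels, restricted minus high (horizontal axis), for each tested probe set in psoas and in diaphragm, with 95% intervals from limma on 8 arrays per muscle. All 22 intervals include 0, and the widest belong to ACADL in psoas and to the ACADVL set of lower mean.

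Between the sexes CPT1B stood nearest to the threshold. In diaphragm it measured 8.95, 9.15, 9.06 and 9.27 in females (animals 5 to 8) and 9.92, 9.82, 9.86 and 9.87 in males (animals 1 to 4), with no overlap, as for 3.77% of all tested probe sets. The difference was -0.76 ± 0.10 (log2, SE, adjusted p = 0.064, limma). It did not pass with the settings chosen, and 0 of 11 probe sets were called where 0.122% of all were. It passed with the stricter filter (limma, adjusted p = 0.040), with a trended prior (0.042) and with no feeding covariate (0.028). With any 1 animal left out it did not pass, at -0.83 to -0.70 (limma, adjusted p = 0.058 to 0.34). In psoas CPT1B measured 9.20, 9.25, 8.74 and 9.47 in females and 9.80, 9.79, 9.27 and 9.05 in males, where the groups overlapped and the difference was -0.31 ± 0.21. None of the 11 was called in psoas, where 0.0959% of all were, and none was without overlap, as 5.42% of all were. There 0 of 11 had an unadjusted p under 0.05 (limma), as against 1331 of 11467. Over both muscles it was -0.54 ± 0.14 (adjusted p = 0.28), and it was 1 of 11 without overlap, as were 4.4% of all tested probe sets. The dependence of its muscle difference on sex was 0.45 ± 0.21 (unadjusted p = 0.057, adjusted p = 0.50). The other 10 probe sets differed between the sexes over both muscles by -0.22 to 0.059, and none was called where 0.183% of all were. CPT1B was the 1 of 11 at an unadjusted p under 0.05 (limma), as against 1051 of 11467. In diaphragm 11 of 11 differences, females minus males, lay below 0 (median -0.13), where 47.1% of all did. In psoas 3 of 11 did (median 0.064), where 52.7% of all did. The dependence of the muscle difference on sex lay below 0 for 1 of 11, against 53.9% of all. None of the 11 was called for it, as were 0% of all. The 11 include several probe sets of HADHB and ACADVL and varied together on the same animals (46 of 55 pairs positive in diaphragm). These counts of signs are therefore not counts of independent values, and no sex difference of the enzymes as a set was tested.

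The enzymes varied together among arrays. Over 16 arrays all 55 pairs of probe sets correlated positively after each muscle's mean was subtracted, with a median Pearson r of 0.62 and a range of 0.16 to 0.97. The 3 HADHB sets correlated with each other at 0.86 to 0.97, and the ACADVL sets at 0.81. HADHA, a neighbour of HADHB in the RefSeq annotation of assembly Sscrofa11.1, correlated at 0.74 to 0.78 with the 3 HADHB sets. Some other pairs of different genes were higher, such as ACADL with HADHA (0.91) and an ACADVL set with an HADHB set (0.92). Within psoas (8 arrays) the median was 0.74, with ACADL and HADHA at 0.95 and HADH and HADHA lowest at 0.065. Within diaphragm (8 arrays) it was 0.48, and 46 of 55 pairs were positive. The values over 16 arrays and within psoas rest in part on the low psoas arrays of animals 3, 4 and 7. No such correlations are given here for pairs of other genes. These values describe arrays that share animals and processing, and probe sets of a gene share its transcript.

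Psoas arrays were more spread than diaphragm arrays for 10 of the 11 probe sets, CPT1B being the exception, against 57.1% of all tested probe sets. The median SD was 0.38 in psoas and 0.23 in diaphragm for the enzymes, and 0.25 in psoas and 0.24 in diaphragm for all. For ACADL it was 0.71 in psoas and 0.28 in diaphragm. The psoas arrays of animals 3, 4 and 7 lay below the other 5 psoas arrays for 7 of the 11 probe sets, those of ACADM, ACADL, HADHA and HADHB and 1 of ACADVL. All 3 HADHB sets are among the 7. Among all tested probe sets 3.99% had this order. The comparison with that share is not a test, since these animals were singled out after their values were seen. HADHA, for example, measured 11.21, 10.79 and 10.95 in them and 11.45 to 11.81 in the other 5 psoas.

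The same 3 psoas arrays were low in the mean of slow fibre genes. The mean of 9 slow fibre genes was 12.31, 12.36 and 12.12 in the psoas of animals 3, 4 and 7, against 12.72 to 12.89 in the other 5 psoas and 12.87 to 13.10 in diaphragm. TNNC1, the slow troponin C, measured 14.39, 14.38 and 14.37 in these 3, against 14.70 to 14.82 in the other 5. It was among the genes most like the enzyme mean, so it is not a typical slow fibre gene here. TNNT1, MYL2 and TNNI1 separated the 3 arrays too, but TPM3 did not, at 8.08 in animal 3 and 8.05 in animal 5. The mean of 8 fast fibre genes was 14.77, 14.51 and 14.74 in animals 3, 4 and 7, against 14.47 to 14.67 in the other 5. That of animal 4 thus lay within the range of the other 5. The skeletal muscle markers of the 3 had means of 13.72, 13.59 and 13.69, against 13.67 to 13.83 in the other 5. The mean of the endothelial markers was 7.05, 6.66 and 6.67 in them, against 6.83 to 7.20 in the other 5. The actin 3' minus 5' difference was 2.38, 2.52 and 2.87 in animals 3, 4 and 7, against 2.18 to 2.66, and that of EF1A was 0.883, 1.07 and 1.503, against 0.810 to 1.21. Animal 7 thus had the highest of both among psoas arrays, and the part of these measures in the pattern was not tested. Since the psoas arrays fell into separate groups, no correlation between the enzymes and the slow fibre mean is given for psoas. Among the 5 higher psoas arrays the 2 means had opposite orders. In animals 2, 6, 5, 1 and 8 the enzyme mean fell, at 0.63, 0.41, 0.11, 0.097 and -0.026. The slow fibre mean rose in that order, at 12.72, 12.78, 12.83, 12.86 and 12.89. Over the 8 diaphragm arrays the enzyme mean and the slow fibre mean had a Pearson r of 0.68 and a Spearman rho of 0.60, and r was 0.63 without the 2 arrays farthest from the median, as a description of arrays processed alike. This was not particular to slow fibre genes. There r was 0.86 for the electron transfer flavoprotein, 0.75 for other mitochondrial beta-oxidation, 0.63 for fuel-switch, 0.61 for peroxisomal and -0.62 for fast fibre genes. The remaining lists so compared lay between -0.31 and 0.54.

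**Figure D5:**
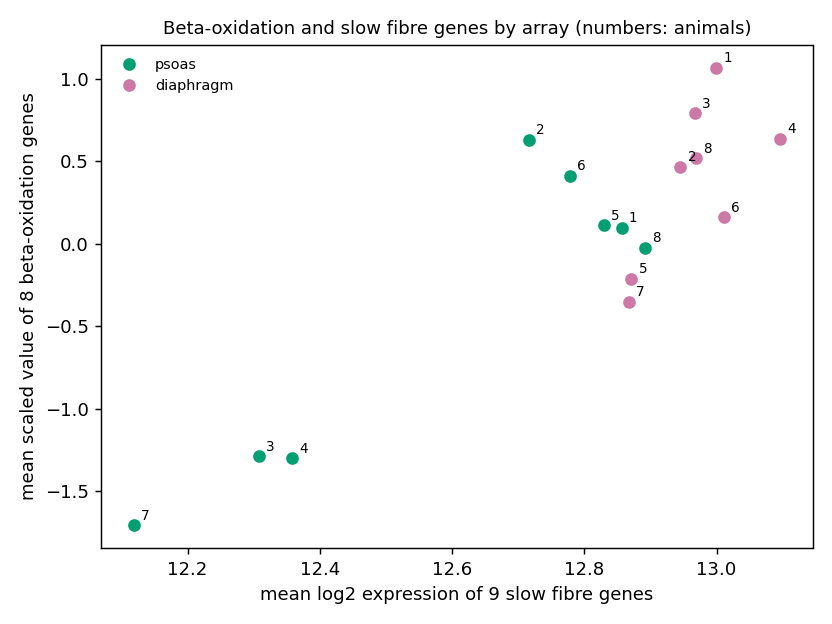
Mean scaled value of 8 beta-oxidation genes (each centred and divided by its SD over 16 arrays, vertical axis) against the mean log2 expression of 9 slow fibre genes (horizontal axis), 1 point per array with the animal's number. The psoas arrays of animals 3, 4 and 7 lie apart at -1.29, -1.30 and -1.71, and the other 13 arrays lie between -0.35 and 1.07.

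The genes whose values were most like the enzyme mean over all 16 arrays, as Pearson r among 4571 genes without the enzymes, were LDHB (0.94), TNNC1 (0.93), MIPEP (0.91), TNNT1 (0.91), ACAA2 (0.90) and MYL2 (0.89). LDHB is the heart form of lactate dehydrogenase, MIPEP a mitochondrial peptidase, ACAA2 the thiolase of the last beta-oxidation step, and TNNT1 and MYL2 are slow fibre genes. After each muscle's mean was subtracted, LDHB (0.92), TNNC1 (0.92), ME2 (mitochondrial malic enzyme, 0.92), DDAH1 (0.90), MIPEP (0.89) and TNNT1 (0.89) were nearest. Within the 8 diaphragm arrays alone the r of these genes ranged from 0.66 for MIPEP to 0.96 for ME2. LDHB in psoas measured 12.60, 12.51 and 12.38 in animals 3, 4 and 7 and 13.20 to 13.52 in the other 5, so that the values over all arrays rest in part on these 3.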

How the data were processed

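The data were log2 expression values of 16 arrays, 1 per muscle and animal, which the authors deposited. Per the submitters' processing notes they were made with GCRMA, which corrects background and equalises arrays. Neither the GCRMA version nor joint treatment of the 16 arrays is stated in the material used. No scaling was added to the deposited log2 values, and the number of arrays limits precision. Symbols came from the platform annotation (10099 probe sets with 1 symbol, 198 with several, 13826 with none), and 124 control probe sets were left out. Tests used limma 3.58.1 in R 4.3.3 and were checked on simulated data. Muscles were compared on 16 arrays with feeding and sex as covariates, feeding and sex on animal means, and dependence on animal differences. An animal's arrays are paired by the labels, and their residuals correlated at 0.072 to 0.26 in 8 of 8 animals. No arrays were identical. The enzymes and gene lists were chosen with earlier results of these data known. Named from each list were up to 4 called genes of smallest p, or else the gene of smallest p, and the 6 genes most like the enzyme mean. CPT1A, CKM, ADIPOQ and MYOT were named after their values were seen. Alternatives covered filter, centring, prior, covariates, blocks and left-out animals.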

Additional observations from a re-analysis of the deposited data

Results flagged for a closer look

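In 48 checks of 4 arrays each (12 probe sets in 4 groups of muscle and feeding level), 3 had an array far from the other 3, where chance gives about 1 in 20. HADH in restricted psoas was low in animal 3, at 11.80, with the other 3 at 12.01. The HADHB set of lowest mean in high-fed diaphragm was low in animal 7, at 11.51, with the other 3 between 11.81 and 11.82. CPT2 in high-fed diaphragm was high in animal 4, at 2.87 against 2.55 to 2.60, all of them below 4.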

How the results depend on the processing

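Between the muscles, 3 enzyme probe sets were called under every alternative except 3. With animals 1, 2, 5, 6 and 8 alone, a choice made after the data were seen, there were 2. Without animal 3 there were 2, the range over left-out animals being 2 to 3, and with animals 4, 6, 7 and 8 alone there were 0. The cause was not tested. In those 4 animals 405 probe sets were called in all, against 3094. With the animal as a replicate block 3836 were called in all, and within feeding levels the block gave 2 enzyme sets under restriction (1 without it) and 1 at high feeding (0 without it). The blocked fits changed no other call of the enzymes. Under restriction 0 were called with no filter, and 0 to 0 without any 1 animal. CPT1B in diaphragm was the 1 set called between the sexes with the stricter filter, the trended prior and no covariate. With the mean of each gene's probe sets the same number of enzyme genes, 3, was called.
Signs turned for values that were not called. Between the muscles ACADM was at 0.011 with animals 4, 6, 7 and 8 and at 0.0011 with the actin covariate. With animals 1, 2, 5, 6 and 8 alone CPT1B was at 0.078, ACADM at 0.088, the ACADVL sets at 0.14 and 0.57, HADHA at 0.13 and 1 HADHB set at 0.17, and for feeding in psoas the ACADVL set of lower mean was at -0.39. Leaving out animals moved ACADM between -0.054 and 0.029, HADHA between -0.14 and 0.022 and the ACADVL set of lower mean between -0.17 and 0.24. For feeding over both muscles, ACADM ranged from -0.0065 to 0.10 and the HADHB sets from -0.066 to 0.14, -0.074 to 0.16 and -0.20 to 0.054. In psoas the ACADVL set ranged from -0.39 to 0.40. In diaphragm CPT1B ranged from -0.093 to 0.033, HADH from -0.15 to 0.049 and HADHA from -0.059 to 0.18. Under restriction the muscle difference of CPT1B ranged from -0.14 to 0.14, and the dependence of DECR1 on feeding from -0.0046 to 0.41.
Of the other values, 689 for single probe sets and 136 counts kept their direction and side of the threshold, 10 lost a call and 5 gained one.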
